A study of Mus musculus with 7 samples.

Results

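RNA bound to tagged Purkinje cell ribosomes was searched for transcripts of the other cells of the cerebellum. The genes described here are 39 of the 55401 genes in the count files, taken as markers of 7 kinds of cell: granule cells (8 genes), Bergmann glia and astrocytes (8), oligodendrocytes (7), microglia (6), endothelium and pericytes (6), interneurons (2) and blood (2). They were found by matching gene identifiers to symbols, and all 39 were present. For each gene, the level was set beside Itpr1, a Purkinje cell gene of the same library, and the nm3888-/- libraries were then compared with the wild type libraries. The nm3888-/- mice were homozygous for nm3888, a spontaneous mutation of Rreb1 that arose on the NOD background and was crossed onto C57BL/6J for several generations. The wild type mice lacked the mutation. Both groups carried Rpl22 fl/+ and PCP2-Cre, so that Purkinje cells alone were meant to make ribosomes with an HA tag, and all mice were 3 weeks old. Each library came from the whole cerebellum of 1 mouse, of which 4 were nm3888-/- and 3 wild type. The libraries fall into 2 series by name: nm3888-/- 1 and 2 with wild type 1 and 2 (all female), and nm3888-/- 3 and 4 (male) with wild type 3 (female). A library of whole cerebellum without pulldown was not analysed here, so levels are given beside Itpr1 and not as a fold of enrichment.

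In this method the cerebellum is homogenised whole, the tagged ribosomes of 1 cell type are captured with an antibody to HA, and the mRNA they hold is sequenced. RNA of untagged neighbours can stay on the beads, and genes known from those neighbours are used to gauge it. Granule cells are the most numerous neurons of the cerebellum, Bergmann glia wrap the Purkinje cell dendrites and oligodendrocytes myelinate the Purkinje axons. In such bulk samples, more cells of a type, more RNA per cell and more RNA left on the beads cannot be told apart.

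The libraries held 18023017 to 107937386 counts assigned to genes. Per the file headers the alignments of the first series came from Bowtie2 and those of the second from STAR, so the series, its aligner and, among nm3888-/- mice, the sex cannot be told apart. Rreb1 itself had 10.8 to 23.7 CPM (counts scaled to the library total with TMM factors) in nm3888-/- libraries and 14.4 to 17.7 CPM in wild type libraries. Its log2 fold change was 0.20 (edgeR, adjusted p = 0.64), so it gave no check of the genotype labels. The paper reports loss of the main brain transcript of Rreb1, V7, and of the signal of a probe to all its transcripts. Counts per gene do not separate transcripts, and why they did not fall was not tested.

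Genes of Purkinje cells were the reference for every level. Itpr1, the IP3-gated calcium channel that Purkinje cells hold in large amounts, had 8635, 12210, 17100 and 13137 CPM in nm3888-/- 1 to 4, against 11182, 9583 and 12801 CPM in wild type 1 to 3. The groups overlapped, and the log2 fold change was 0.10 (95% interval -0.26 to 0.45, adjusted p = 0.747). Because Itpr1 was lowest in nm3888-/- 1 and highest in nm3888-/- 3, levels beside it come out higher in the first of these libraries and lower in the second than CPM would give. Per kilobase of gene, Calb1 (calbindin) stood at 198 to 264% of Itpr1 and Car8, a carbonic anhydrase-related protein that binds the IP3 receptor, at 313 to 429%. Pcp2, the source of the Cre promoter, stood at 194 to 355%. Ppp1r17, Rgs8 and Slc1a6 ranged between 69.7 and 231%. The transcription factors Skor2 and Foxp2 stood lower, at 6.67 to 9.84% and 0.368 to 0.799%. None of the 10 Purkinje cell genes passed edgeR's test between genotypes, DESeq2 called 0, 1 had an unadjusted p under 0.05 in edgeR, and their median log2 fold change was 0.10. The 10 Purkinje cell genes took 3.98 to 5.55% of a library's counts, and the 39 markers of other cells took 0.21 to 0.334% in nm3888-/- libraries and 0.172 to 0.199% in wild type libraries.

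Markers of every other cell type were present in all libraries, at levels that spanned more than 3 orders of magnitude. No marker had a count of 0 in any library. By the median over the 7 libraries, 18 of the 39 lay above 1% of Itpr1 per kilobase and 7 lay at or under 0.1%. The highest was Htra1, a secreted serine protease of Bergmann glia, at 23.6% of Itpr1. It was followed by Tspan2, a tetraspanin of oligodendrocytes, at 8.52%, the beta globin Hbb-bs at 8.09%, the alpha globin Hba-a1 at 7.94% and the myelin gene Mbp at 4.43%. The lowest was P2ry12, the purine receptor of microglia, at 0.0149%, which is 6733-fold below Itpr1. Neighbours in this order did not separate: Tspan2, Hbb-bs and Hba-a1 ranged over 4.47 to 13%, 7.27 to 23% and 5.97 to 13.9% across libraries. Within their own lists, Htra1 was followed by Gdf10 at 3.49% and Tspan2 by Mbp. In which cells the RNA of Htra1 and Tspan2 was made was not tested.

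**Figure D1:**
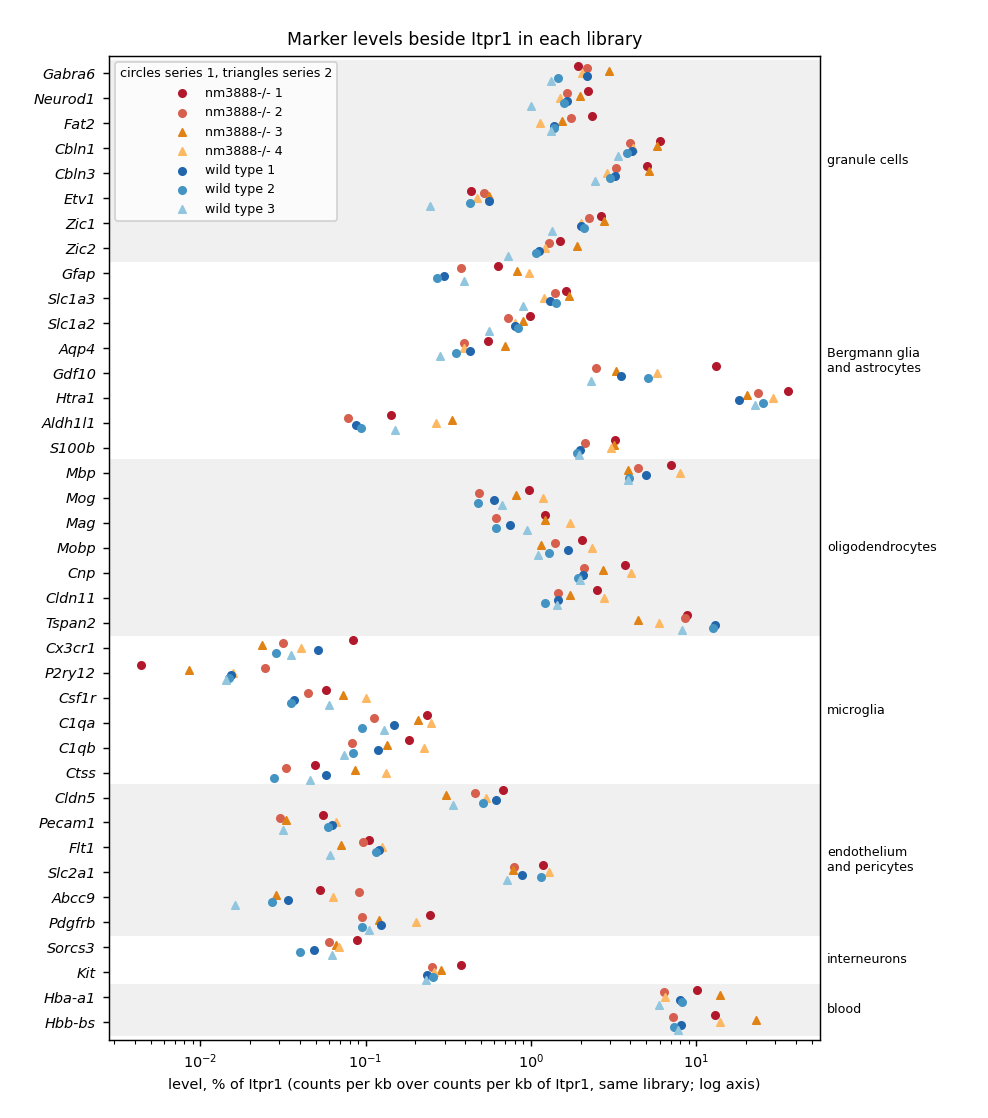
Level of each of the 39 markers in each of the 7 libraries, as counts per kilobase in percent of the same for Itpr1 (log axis), with nm3888-/- libraries in red and orange and wild type libraries in blue. Htra1 lies between 18.2 and 35.8% of Itpr1, and the highest value of a microglia gene is 0.249% (C1qa in nm3888-/- 4).

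Between genotypes, nearly every marker leaned towards nm3888-/-, and few passed the test. The markers were chosen with earlier results of these data known, so their shares beside all tested genes are a description. Of the 39 markers 38 passed the filter on low counts, and P2ry12 did not. Among these 38, 4 were called higher in nm3888-/- (Gfap, Cnp, Cldn11 and Abcc9), which is 10.5%, where 2.58% of the 17621 tested genes were called higher. Tspan2 alone was called lower (2.63%), where 5.95% of all tested genes were. The log2 fold change was above 0 for 37 of the 38 (97.4%, against 53.4% of all tested genes), with a median of 0.55, where the median of all tested genes was 0.027. An unadjusted p under 0.05 on the higher side was found for 22 of the 38 (57.9%, against 10.4% of all tested genes). All 4 nm3888-/- libraries lay above all 3 wild type libraries in CPM for 9 markers (23.7%, against 5.16% of all tested genes): Neurod1, Cbln1, Cbln3, Zic1, Zic2, S100b, Cnp, Abcc9 and Kit. They lay below for Tspan2 alone (2.63%, against 8.92%). Each nm3888-/- library exceeded the wild type mean of its own series for 25 of the 38 markers, where 18.6% of all tested genes did so, and each fell short of it for Tspan2 alone, where 20.6% of all tested genes did so. These calls rested on few mice. Without wild type 3, edgeR called none of the 38, with 6 at an unadjusted p under 0.05 on the higher side and 1 on the lower. That fit leaves the second series without a wild type library, so its genotype effect comes from the first series. With sex in place of the series edgeR called none, with 1 and 0. The only males were nm3888-/- 3 and 4, so these libraries add nothing to the genotype effect of that fit, and wild type 3 is not adjusted for its series. With the replicate number as a block, 2 markers were called higher (Gfap and Fat2) and 0 lower (23 and 1 at an unadjusted p under 0.05). DESeq2 called 7 higher and 1 lower.

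**Figure D2:**
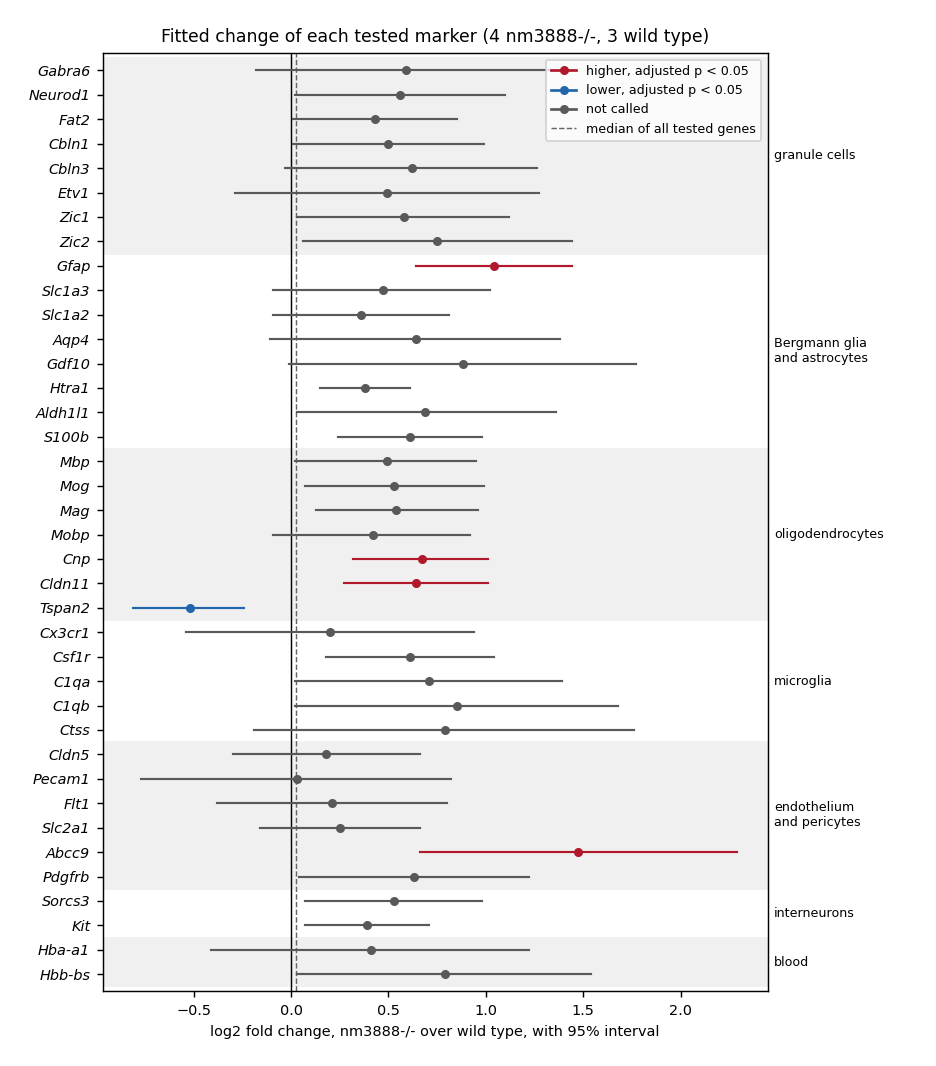
Log2 fold change of each tested marker in nm3888-/- over wild type with its 95% interval, from 4 nm3888-/- and 3 wild type libraries. Points lie to the right of 0 for 37 of 38 markers, with the called ones in red (higher) or blue (lower), and the dashed line is the median of all tested genes at 0.027.

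Granule cell markers lay between 0.726 and 6% of Itpr1, except Etv1 (0.244 to 0.56%), and leaned higher in nm3888-/- libraries without a call. Cbln1, the synaptic organiser that granule cells release onto Purkinje cell spines, had the highest level per kilobase. It had 85.9, 80.3, 165 and 90.9 CPM in nm3888-/- 1 to 4, against 76.1, 61 and 71.5 CPM in wild type 1 to 3. The groups did not overlap, with nm3888-/- 3 far above the rest, and the log2 fold change was 0.50 (SE 0.22, adjusted p = 0.206). Cbln3, its partner in granule cells, had 116, 106, 236 and 100 CPM in nm3888-/- libraries, against 96.3, 76.9 and 82.8 CPM in wild type libraries, again highest in nm3888-/- 3. Gabra6, the GABA-A receptor subunit of mature granule cells, had 22.7, 36.1, 69.3 and 36.5 CPM in nm3888-/- libraries, against 33, 18.9 and 22.9 CPM in wild type libraries. Here nm3888-/- 1 lay among the wild type libraries and the interval of the log2 fold change ran from -0.18 to 1.35.

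The transcription factors of granule cells had the same leaning. Zic2 had 20.2, 24.7, 51.5 and 25.1 CPM in nm3888-/- libraries, against 19.8, 16.2 and 14.6 CPM in wild type libraries, with a difference of 0.75 on the log2 scale (SE 0.30, adjusted p = 0.178). Its relative Zic1 averaged 96.8 ± 34.1 CPM in nm3888-/- libraries and 62.1 ± 8.17 CPM in wild type libraries (SD, n = 4 and 3). Neurod1, a bHLH factor of granule cells, averaged 34.6 ± 10.8 and 23.1 ± 4.23 CPM in nm3888-/- and wild type libraries. Etv1, an ETS factor, had 27.1, 46.2, 69.5 and 44.7 CPM in nm3888-/- libraries, against 45.3, 29.9 and 22.6 CPM in wild type libraries, which overlapped. The protocadherin Fat2, found on granule cell axons, averaged 164 ± 37.3 and 121 ± 15.6 CPM in nm3888-/- and wild type libraries, and was called higher with the replicate number as a block (log2 0.57, adjusted p = 0.0447). Over the 8 genes none was called, 5 had an unadjusted p under 0.05, DESeq2 called none, and the median log2 fold change was 0.57. It was 0.26 in the first series and 1.09 in the second. All 8 were highest in nm3888-/- 3, by CPM.

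Among Bergmann glia and astrocyte genes, Gfap rose in nm3888-/- libraries. Gfap (ENSMUSG00000020932.14, mm10 chromosome 11 from 102887336 to 102900912, minus strand) encodes the intermediate filament that astrocytes add when they react to injury. It had 12.5, 10.6, 32.2 and 29.5 CPM in nm3888-/- 1 to 4, against 7.63, 5.97 and 11.6 CPM in wild type 1 to 3. The wild type library of the second series lay above nm3888-/- 2 of the first, but within each series every nm3888-/- library exceeded the wild type. The log2 fold change was 1.04 (SE 0.17, 95% interval 0.64 to 1.44, adjusted p = 0.00788), and the call held with the replicate block (adjusted p = 0.0244). It was 0.77 in the first series alone (adjusted p = 0.0883) and 1.42 in the second (adjusted p = 0.000661). Without wild type 3 the call was lost (log2 0.76, adjusted p = 0.0649), but in that fit too the genotype effect comes from the first series. The call was also lost with no series term (log2 1.34, adjusted p = 0.338). With sex in place of the series, where nm3888-/- 3 and 4 add nothing, the log2 fold change was 0.46 (adjusted p = 0.754).

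Htra1 and S100b lay just outside the threshold. Htra1 had 486, 453, 547 and 605 CPM in nm3888-/- libraries, against 320, 382 and 458 CPM in wild type libraries, with a difference of 0.38 on the log2 scale (SE 0.10, adjusted p = 0.0507). S100b, the calcium-binding protein of astrocytes and Bergmann glia, had 22.6, 21.1, 44.1 and 32.4 CPM in nm3888-/- libraries, against 18.1, 14.8 and 20.4 CPM in wild type libraries, with a difference of 0.61 on the log2 scale (SE 0.16, adjusted p = 0.0522). The groups did not overlap for S100b and touched for Htra1, where wild type 3 exceeded nm3888-/- 2. DESeq2 called both higher (adjusted p = 0.0227 for Htra1 and 0.00605 for S100b).

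The other glial genes overlapped between genotypes. Gdf10, a secreted ligand of Bergmann glia, had 321, 85.5, 158 and 218 CPM in nm3888-/- libraries, against 111, 139 and 83.8 CPM in wild type libraries. The 3 highest values were nm3888-/-, but nm3888-/- 2 stood below wild type 1 and 2, and the interval of the log2 fold change was -0.01 to 1.77. The log2 fold change was 1.26 (adjusted p = 0.00807) without nm3888-/- 2 and 0.31 (adjusted p = 0.693) without nm3888-/- 1. Aqp4, the water channel of astrocyte endfeet, had 16.1, 16.4, 40.4 and 17.5 CPM in nm3888-/- libraries, against 16.4, 11.5 and 12.2 CPM in wild type libraries. The glutamate transporters Slc1a3 (GLAST) and Slc1a2 (GLT-1) had log2 fold changes of 0.47 and 0.36, with intervals of -0.09 to 1.02 and -0.09 to 0.81. Aldh1l1, a folate enzyme of astrocytes, was the least abundant, with 2.35 to 14.1 CPM in nm3888-/- libraries and 2.22 to 4.73 CPM in wild type libraries. The median log2 fold change of the 8 genes was 0.63, with 0.32 in the first series and 1.07 in the second.

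The genes listed for oligodendrocytes split in direction, with Cnp and Cldn11 higher and Tspan2 lower in nm3888-/- libraries. Cnp (ENSMUSG00000006782.16, mm10 chromosome 11 from 100574904 to 100591729, plus strand), a phosphodiesterase of uncompacted myelin, had 63.3, 50.7, 92.5 and 105 CPM in nm3888-/- 1 to 4, against 45.9, 37 and 50.3 CPM in wild type 1 to 3. The groups did not overlap. The log2 fold change was 0.67 (SE 0.15, adjusted p = 0.0303). Cldn11 (ENSMUSG00000037625.7, mm10 chromosome 3 from 31149920 to 31164324, plus strand), the claudin of myelin tight junctions, had 22.1, 18.2, 30.1 and 37 CPM in nm3888-/- libraries, against 16.6, 11.9 and 18.7 CPM in wild type libraries. Its groups overlapped by 1 library, wild type 3, and the log2 fold change was 0.64 (SE 0.16, adjusted p = 0.0454). With the replicate number as a block neither passed (adjusted p = 0.0545 for Cnp and 0.0583 for Cldn11), and Cldn11 lost its call when any library other than wild type 1 was left out.

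Tspan2 (ENSMUSG00000027858.13, mm10 chromosome 3 from 102734529 to 102801513, plus strand), a tetraspanin first known from the oligodendrocyte lineage, had 199, 270, 199 and 203 CPM in nm3888-/- libraries, against 378, 317 and 274 CPM in wild type libraries. All nm3888-/- libraries lay below all wild type libraries, although nm3888-/- 2 and wild type 3 differed by little. The log2 fold change was -0.52 (SE 0.13, 95% interval -0.81 to -0.24, adjusted p = 0.037). It was -0.57 in the first series alone and -0.45 in the second, and the replicate block gave -0.54 (adjusted p = 0.108). Tspan2 made 22.9 to 57.4% of the summed level of the 7 oligodendrocyte genes. The other structural genes of myelin leaned the other way. Mbp, the basic protein of compact myelin, had 280, 250, 305 and 485 CPM in nm3888-/- libraries, against 258, 174 and 230 CPM in wild type libraries, with 1 overlapping library on each side. Mobp, also of compact myelin, had 63.8 to 115 CPM in nm3888-/- libraries and 46.4 to 70.2 CPM in wild type libraries. Mag and Mog, 2 proteins of the inner and outer myelin membranes with immunoglobulin domains, had log2 fold changes of 0.54 and 0.53 (adjusted p = 0.111 and 0.15). All 6 genes other than Tspan2 were highest in nm3888-/- 4 and lowest in wild type 2. Tspan2 did not share this order, and in which cells its RNA was made was not tested.

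Microglia genes lay low and none was called. The counts were small: 1 to 234 in nm3888-/- libraries and 5 to 248 in wild type libraries, before scaling for depth. P2ry12 had 1, 14, 12 and 13 counts in nm3888-/- 1 to 4, against 6, 5 and 26 counts in wild type 1 to 3, too few for a comparison at this depth. Csf1r, the receptor on which microglia depend for survival, had 1.57, 1.73, 3.94 and 4.18 CPM in nm3888-/- libraries, against 1.3, 1.07 and 2.42 CPM in wild type libraries, with a difference of 0.61 on the log2 scale (SE 0.19, adjusted p = 0.0887). The first series lay lower than the second in both genotypes. C1qa and C1qb, chains of the first complement component, had log2 fold changes of 0.71 and 0.85 (adjusted p = 0.196 and 0.202). Ctss, a lysosomal protease, had 5 to 65 counts across the 7 libraries, with 0.298 to 1.28 CPM in nm3888-/- libraries and 0.198 to 0.474 CPM in wild type libraries. Cx3cr1, the fractalkine receptor, had 0.954 to 1.78 CPM in nm3888-/- libraries and 0.673 to 1.42 CPM in wild type libraries. Of the 5 tested, 3 had an unadjusted p under 0.05, DESeq2 called none, and the median log2 fold change was 0.71.

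Of the vessel genes, 1 of 6 was called. Abcc9 (ENSMUSG00000030249.15, mm10 chromosome 6 from 142587862 to 142702315, minus strand), the sulfonylurea receptor subunit of pericyte potassium channels, rose in nm3888-/- libraries. It had 2.1, 5.1, 2.24 and 3.81 CPM in nm3888-/- 1 to 4, against 1.74, 1.19 and 0.946 CPM in wild type 1 to 3. The groups did not overlap, and the log2 fold change of 1.47 (SE 0.36, adjusted p = 0.0383) was the largest among the markers. The counts behind it were 40 to 172 in nm3888-/- libraries and 30 to 97 in wild type libraries. With the replicate block it was 1.23 (adjusted p = 0.0995), and without nm3888-/- 2, the library with the most, 1.16 (adjusted p = 0.144). Pdgfrb, the growth factor receptor that defines pericytes, had 6.34, 3.46, 6.18 and 7.92 CPM in nm3888-/- libraries, against 4.15, 2.73 and 4.01 CPM in wild type libraries, with nm3888-/- 2 within the wild type range (log2 0.63, adjusted p = 0.181). Abcc9 and Pdgfrb thus had opposite orders in nm3888-/- 2, which was highest for Abcc9 and the lowest nm3888-/- library for Pdgfrb.

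The 4 endothelial genes were not called. Cldn5, the claudin of the blood-brain barrier, had 4.51, 4.35, 4.04 and 5.4 CPM in nm3888-/- libraries, against 5.33, 3.8 and 3.36 CPM in wild type libraries. The groups overlapped through wild type 1, and the interval of the log2 fold change was -0.30 to 0.66. Slc2a1, the glucose transporter GLUT1, was the most abundant of the vessel genes at 0.784 to 1.29% of Itpr1 in nm3888-/- libraries and 0.718 to 1.15% in wild type libraries, with an interval of -0.16 to 0.66. Flt1, a VEGF receptor, and Pecam1, an adhesion molecule of endothelium, had log2 fold changes of 0.21 and 0.03 (adjusted p = 0.665 and 0.976). In the first series alone all 4 were below 0 (-0.04 for Cldn5, -0.07 for Slc2a1, -0.23 for Flt1 and -0.60 for Pecam1). In the second series alone all 4 were above 0 (0.49 for Cldn5, 0.73 for Slc2a1, 0.87 for Flt1 and 0.83 for Pecam1).

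The interneuron genes were low and not called. Kit, the receptor tyrosine kinase of basket and stellate cells, had 16, 15.1, 23.6 and 16.6 CPM in nm3888-/- libraries, against 12.8, 11.9 and 14.5 CPM in wild type libraries. The groups did not overlap, and the log2 fold change was 0.39 (SE 0.14, adjusted p = 0.138). Sorcs3, a sorting receptor found in molecular layer interneurons, had 2.99, 2.86, 4.38 and 3.54 CPM in nm3888-/- libraries, against 2.13, 1.5 and 3.11 CPM in wild type libraries (log2 0.53, SE 0.20, adjusted p = 0.149). Neither was called, and DESeq2 called neither, although both had an unadjusted p under 0.05. The summed level of the 2 genes was 0.469, 0.314, 0.35 and 0.329% of Itpr1 in nm3888-/- libraries and 0.284, 0.296 and 0.295% in wild type libraries.

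Globin RNA, which comes from red cells and their precursors, was present in every library. Each globin marker has a copy beside it that is near-identical in its coding sequence. These sequences show how little separates the coding parts of Hba-a1 from Hba-a2 and of Hbb-bs from Hbb-bt. The counted gene lengths are 812 and 667 bases for the alpha pair and 768 and 703 for the beta pair. Bases outside the coding sequence were not compared. Over the 426 coding bases of the alpha pair and the 441 of the beta pair, 1 base differs, marked here as the capital in the 30 bases around it (GENCODE transcripts on GRCm38, coding positions 367 to 396 for alpha and 403 to 432 for beta).
Hba-a1, chr11:32284329-32284358, plus strand: catgcctctctggaCaaattccttgcctct
Hba-a2, chr11:32297146-32297175, plus strand: catgcctctctggaTaaattccttgcctct
Hbb-bs, chr7:103826677-103826706, minus strand: gtggctggagtggcCgctgccctggctcac
Hbb-bt, chr7:103812668-103812697, minus strand: gtggctggagtggcTgctgccctggctcac
The longest run shared by the coding sequences is 380 bases in the alpha pair and 416 in the beta pair. The counts of the copies divided unequally by series. Hba-a2 had 82.7, 52.4, 11 and 35.3% of the count of Hba-a1 in nm3888-/- 1 to 4, against 49.2, 49.3 and 8.82% in wild type 1 to 3. Hbb-bt had 31.4, 38.6, 12.2 and 16.4% of the count of Hbb-bs in nm3888-/- libraries, against 37, 35 and 11.9% in wild type libraries. Both shares were lower in the second series, which also has another aligner, so the value of a single globin gene is uncertain and the sum of each pair is given as well.

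The alpha pair summed to 70.4, 52.9, 117 and 51.3 CPM in nm3888-/- 1 to 4, against 58.7, 52.3 and 36.8 CPM in wild type 1 to 3. The beta pair summed to 61.6, 51.6, 185 and 89.6 CPM in nm3888-/- libraries, against 52, 40 and 46.8 CPM in wild type libraries. Both were highest in nm3888-/- 3 and the groups overlapped. Alone, Hba-a1 had 38.5, 34.7, 106 and 37.9 CPM in nm3888-/- libraries, against 39.4, 35.1 and 33.9 CPM in wild type libraries (log2 0.41, 95% interval -0.41 to 1.22, adjusted p = 0.54). Hbb-bs had 46.9, 37.2, 165 and 76.9 CPM in nm3888-/- libraries, against 37.9, 29.6 and 41.8 CPM in wild type libraries (log2 0.79, SE 0.33, adjusted p = 0.192). Neither globin marker was called by edgeR or DESeq2, and 1 had an unadjusted p under 0.05.

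Which library was highest depended on the cell type. By CPM, nm3888-/- 3 was the highest of the 7 libraries for 19 of the 39 markers, among them all 8 granule cell genes, 6 of 8 glial genes, both interneuron genes and both globins. The library nm3888-/- 4 was highest for 15, among them 6 of 7 oligodendrocyte genes and 5 of 6 vessel genes. Wild type 2 was the lowest for 23 and wild type 3 for 12. Beside Itpr1 per kilobase the tally differed: nm3888-/- 1 was highest for 12 markers, nm3888-/- 3 for 10 and nm3888-/- 4 for 14, while wild type 3 was lowest for 18 and wild type 2 for 9. On that scale nm3888-/- 3 was highest for 5 of 8 granule cell genes and both globins, nm3888-/- 1 for 4 of 8 glial genes and both interneuron genes, and nm3888-/- 4 for 6 of 7 oligodendrocyte genes. Relative to the wild type of its own series, the median log2 value over granule cell genes was 0.18, 0.33, 1.48 and 0.61 in nm3888-/- 1 to 4. Over glial genes it was 0.43, 0.26, 1.23 and 0.62, over oligodendrocyte genes 0.55, 0.13, 0.68 and 0.98, over vessel genes -0.03, -0.07, 0.58 and 1.03, and over the globins 0.26, 0.02, 1.81 and 0.52. Over all tested genes the same medians lay between 0.00 and 0.02. Thus, in CPM, nm3888-/- 3 had the highest of these medians for granule cell, glial and blood genes, and nm3888-/- 4 for oligodendrocyte and vessel genes. Over 4 choroid plexus genes, which are not among the 39, the medians were 0.57, -0.00, 2.15 and 0.84, again highest in nm3888-/- 3. The part of choroid plexus RNA in these results was not tested.

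**Figure D3:**
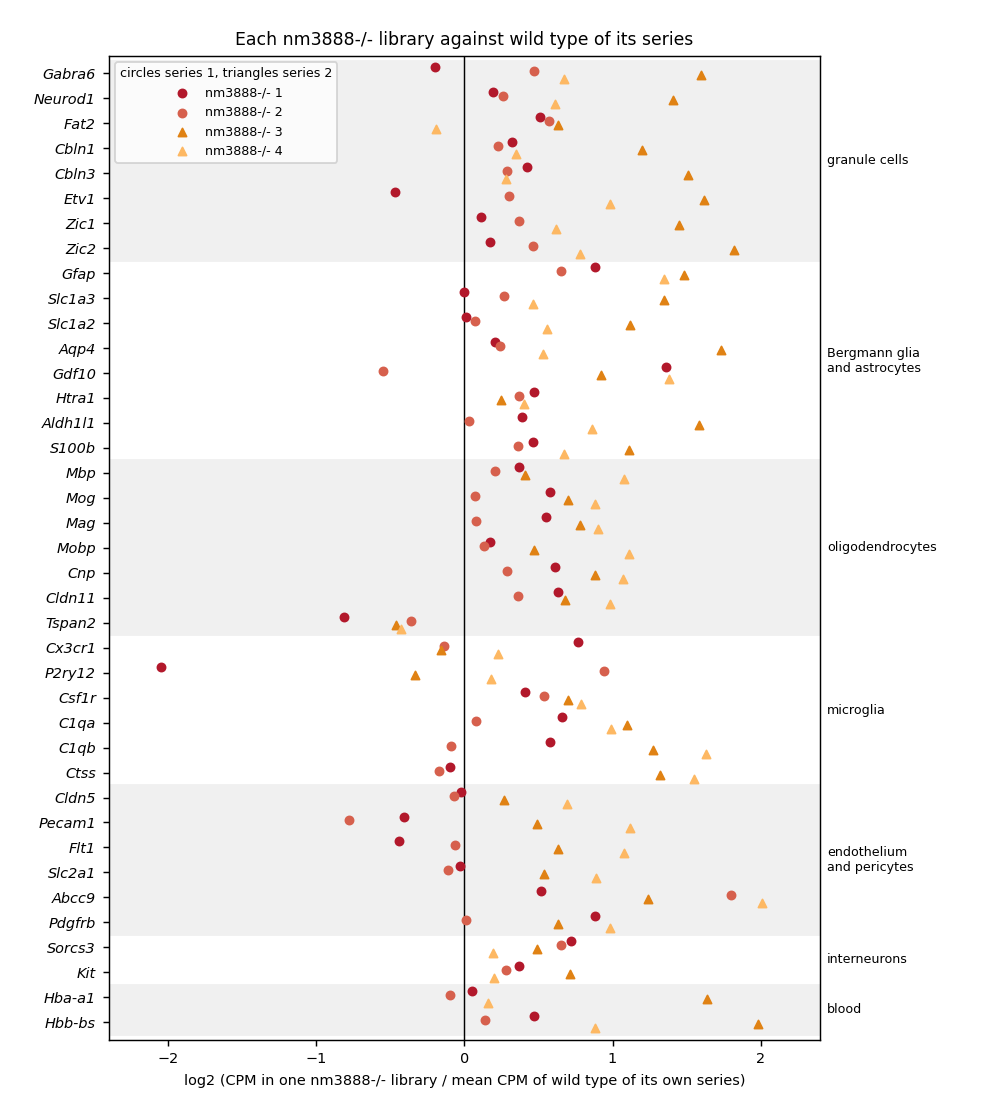
Log2 of the CPM of each marker in 1 nm3888-/- library over the mean CPM of the wild type libraries of the same series (2 in the first, 1 in the second). In all 8 rows of granule cell genes nm3888-/- 3 lies farthest right, and Tspan2 lies left of 0 in all 4 libraries.

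The 2 series gave different sizes. The median log2 fold change of the markers was 0.31 in the first series and 0.87 in the second, where all nm3888-/- libraries are set against wild type 3 alone. Those nm3888-/- mice were male and wild type 3 was female, so genotype and sex cannot be told apart within the second series. The same holds for its part in the interaction below. In the second series edgeR called 17 markers higher, where 3.27% of all genes tested there were called higher. In the first it called 0, where 1.12% of all genes were, with 9 at an unadjusted p under 0.05, and the adjusted p of Gfap was 0.0883. The difference between series was tested as an interaction. It was above 0 for 34 of the 38 markers (89.5%, against 52.3% of all tested genes) and had an unadjusted p under 0.05 for 8 (21.1%, against 5.77%), but no marker was called, where 0.0795% of all tested genes were. The smallest adjusted p was that of Slc2a1 (0.684, a difference of 0.80 on the log2 scale), followed by Flt1 (0.705, a difference of 1.10). DESeq2 was not run for the interaction. With no filter on low counts, 5 markers were called for it (Hbb-bs, Hba-a1, Gabra6, Etv1 and Zic2).

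Summed by cell type beside Itpr1, most types overlapped between genotypes. The granule cell sum was 22.1, 16.9, 22.8 and 15.4% of Itpr1 in nm3888-/- 1 to 4, against 16.3, 14.9 and 11.8% in wild type 1 to 3. The glial sum was 56.1, 31.2, 31.2 and 41.8% in nm3888-/- libraries, against 26.6, 35.4 and 29.3% in wild type libraries, and Htra1 made 63.9 to 77.7% of it. Without Htra1 it was 20.2, 7.57, 10.9 and 12.5% in nm3888-/- libraries, against 8.4, 10 and 6.54% in wild type libraries. The oligodendrocyte sum averaged 21.8 ± 5.15% in nm3888-/- libraries and 21.7 ± 3.18% in wild type libraries (SD, n = 4 and 3). Without Tspan2 the oligodendrocyte sum was 17.4, 10.5, 11.5 and 20% in nm3888-/- libraries, against 11.5, 9.47 and 10% in wild type libraries, a higher average in nm3888-/- libraries.

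The microglia sum was 0.614, 0.328, 0.533 and 0.762% of Itpr1 in nm3888-/- libraries, against 0.43, 0.285 and 0.359% in wild type libraries. The vessel sum was 2.32, 1.57, 1.34 and 2.28% in nm3888-/- libraries, against 1.84, 1.96 and 1.27% in wild type libraries. The globin sum was 23, 13.7, 36.9 and 20.5% in nm3888-/- libraries, against 16, 15.6 and 13.8% in wild type libraries. Of the 7 sums, that of the interneuron genes did not overlap between genotypes. Kit made 78.8 to 86.4% of it, and Sorcs3, the rest, overlapped. The sum of 6 further interneuron genes averaged 0.551 ± 0.118% in nm3888-/- libraries and 0.577 ± 0.123% in wild type libraries (SD, n = 4 and 3). What part of these sums is RNA carried over from other cells, and what part Purkinje cells make themselves, was not tested.

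**Figure D4:**
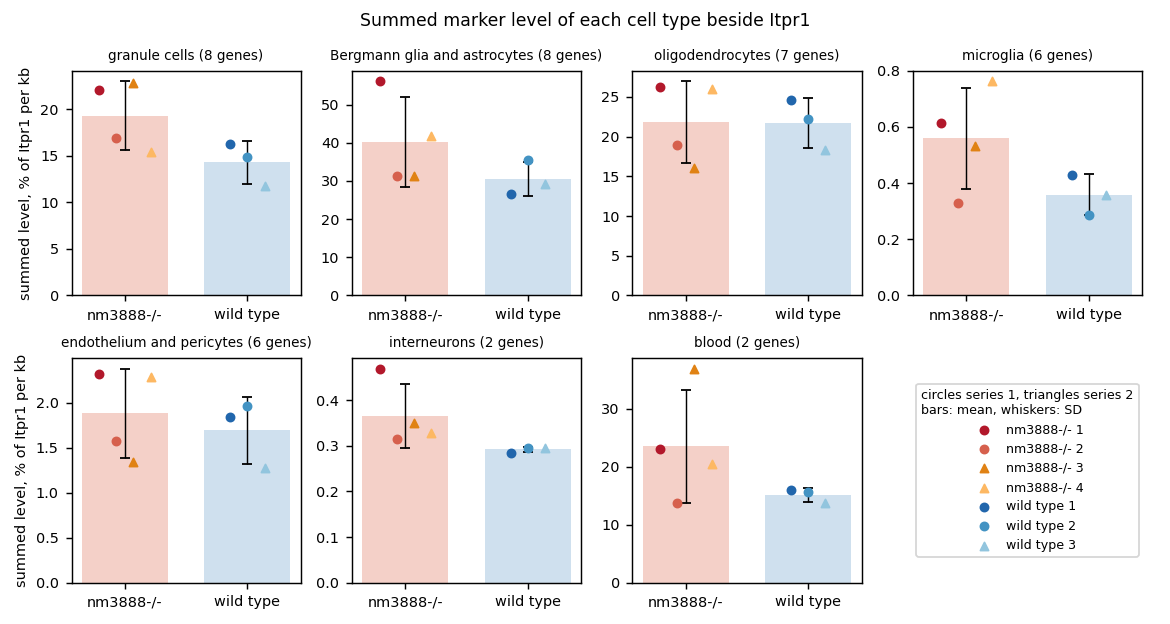
Summed level of the markers of each cell type in percent of Itpr1 per kilobase, with 1 point per library, bars for the mean and whiskers for the SD (nm3888-/- n = 4, wild type n = 3). The interneuron points of nm3888-/- all lie above those of wild type, and the oligodendrocyte bars have nearly the same height (21.8 and 21.7%).

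A further 60 markers of the same cell types, choroid plexus and unipolar brush cells were read in the same fit. They too were chosen with earlier results of these data known. Of these 55 were tested, and 2 were called higher and 2 lower (3.64% each, where 2.58 and 5.95% of all tested genes were). The log2 fold change was above 0 for 46 (83.6%, against 53.4% of all tested genes), and the median was 0.49. Calb2 (calretinin, a granule and unipolar brush cell protein) had 23.3, 22.1, 68.1 and 65.3 CPM in nm3888-/- 1 to 4, against 16, 16.6 and 28.2 CPM in wild type 1 to 3 (log2 0.79, adjusted p = 0.0189). Fcrls, a microglial Fc receptor-like gene, had 9, 19, 56 and 50 counts in nm3888-/- libraries, against 5, 2 and 20 counts in wild type libraries (log2 2.19, adjusted p = 0.00576). No other microglia gene of either list was called, and 4 of the 10 further ones did not pass the filter on low counts.

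The lower calls were Hopx and Ugt8a, in lists that otherwise leaned higher: the log2 fold change was above 0 for 8 of 10 further glial genes (median 0.57) and 6 of 8 further oligodendrocyte genes (median 0.45). Hopx, a homeodomain-only protein of Bergmann glia, had 126, 127, 96.1 and 132 CPM in nm3888-/- libraries, against 158, 229 and 245 CPM in wild type libraries (log2 -0.82, adjusted p = 0.0207). Ugt8a, the enzyme that makes the galactolipids of myelin, had 13.4, 18.7, 21.1 and 18.2 CPM in nm3888-/- libraries, against 35.1, 35 and 26.4 CPM in wild type libraries (log2 -0.84, adjusted p = 0.0219). For both, all nm3888-/- libraries lay below all wild type libraries.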

How the data were processed

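RNA was pulled down with HA-tagged RPL22 from the cerebella of 4 nm3888-/- and 3 wild type mice. The authors removed duplicates, trimmed with fastp, aligned to mm10 and made the counts per gene with featureCounts (2.0.1, GENCODE M25), and the deposited counts are raw. Bowtie2 is named in the methods, and the headers name STAR paths in the second series. Symbols were matched for 55141 of 55401 genes (99.53%). Mitochondrial counts were 0 in the second series.

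Genotypes were compared with edgeR 4.0.16 (limma 3.58.1, R 4.3.3; quasi-likelihood test, TMM, filterByExpr) with the library series as a term, because the methods name batch without assigning libraries to it. P-values were adjusted over 17621 genes (Benjamini-Hochberg) and called under 0.05. Standard errors came from the F statistic. The interaction of genotype and series was fitted likewise. Levels are counts per kilobase of counted gene length in percent of Itpr1, with no test. Intervals are at 95%. The fit was tested on simulated data, with 50 genes changed at each size. It called 8 of them at 1.5-fold, 30 at 2-fold, 47 at 4-fold and 45 at 8-fold. Of its 139 calls 9 were false. Most changes of 1.5-fold were thus missed, so a gene that is not called may still differ.

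The members and lists were chosen with earlier results of these data known. The text names all members, Itpr1, the 10 Purkinje cell genes (except 1 that is not reported here) and, of each further list, up to 2 called genes a direction with the smallest adjusted p. P-values measure the spread between mice. Alternatives were DESeq2 1.42.0, RLE, scaling to Purkinje cell genes, no filter, no series term, sex in place of series, the replicate block, each series alone and each library left out. Same-numbered libraries deviated together (r = 0.9, 0.948 and 0.951 across genes, which are not independent replicates), but other pairs within a series did as well (0.922, 0.932 and 0.958). The block leaves nm3888-/- 4 without a partner, so that this library adds nothing to it. With sex as the term, nm3888-/- 3 and 4 (the only males) add nothing to the genotype effect, nor do they without wild type 3. In the second series alone and in the interaction, wild type 3 has no replicate and is assumed to vary like the other libraries. Genotype and sex go together in the second series, so an effect of sex there cannot be told apart from one of genotype.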

Additional observations from a re-analysis of the deposited data

Results flagged for a closer look

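In 7 of 47 checks on the 4 nm3888-/- libraries, 1 library stood apart from the other 3, with a gap to the nearest above Dixon's 95% critical value for 4 samples. Chance flags about 1 in 20 groups. In 6 of them it was nm3888-/- 3, which was high for Neurod1 (50.7 CPM), Cbln1 (165 CPM), Cbln3 (236 CPM), Zic2 (51.5 CPM), Aqp4 (40.4 CPM) and Hba-a1 (106 CPM). The genes were measured in the same libraries, so these flags are not independent. The seventh was Tspan2, where nm3888-/- 2 was high (270 CPM) and lay next to wild type 3 (274 CPM).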

How the results depend on the processing

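The number of markers called depended on the libraries and terms used. Against 4 called higher and 1 lower, markers called higher numbered 2 with Purkinje gene scaling, 10 with no filter on low counts, 7 with DESeq2 and 17 in the second series alone. They numbered 0 with no library series term, with sex in place of the series and in the first series alone, and 2 with the replicate block. Markers called lower numbered 0 with no series term, with sex, with the replicate block and in either series alone. Leaving out 1 library gave 0 to 4 higher and 0 to 1 lower. Leaving out wild type 3 leaves the genotype effect to the first series, so it is not a check apart from the first series alone. The call of Gfap was kept under 12 of 16 alternatives, that of Abcc9 under 7, of Cnp under 6, and of Cldn11 and Tspan2 under 5 each. The cause was not tested. No called marker changed direction under any alternative listed.

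Over all genes, 455 called higher and 1049 called lower became 213 higher with Purkinje gene scaling, 731 higher with no filter and 794 higher with DESeq2. They became 58 and 251 with no series term, 17 and 85 with sex, 241 and 571 with the replicate block, and 191 and 488 in the first series alone, and 567 and 493 in the second. Leaving out 1 library gave 173 to 434 higher and 426 to 991 lower. The interaction called 14 genes, 370 with no filter on low counts (5 of them markers) and 10 to 32 without 1 library (0 markers each time). It could not be fitted without wild type 3.

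Changes of sign, all in genes without a call, were found for Etv1 (-0.03), Cldn5 (-0.04), Pecam1 (-0.60), Flt1 (-0.23), Slc2a1 (-0.07) and Hba-a1 (-0.02) in the first series alone. With sex they were found for Aldh1l1 (-0.22), Ctss (-0.29), Pecam1 (-0.39), Flt1 (-0.05), Slc2a1 (-0.01) and Itpr1 (-0.10). Pecam1 was -0.06 with Purkinje gene scaling and -0.17 with the replicate block. Without 1 library the range was -0.03 to 0.82 for Etv1, -0.03 to 0.41 for Cx3cr1, -0.14 to 1.23 for Ctss, -0.05 to 0.37 for Cldn5, -0.60 to 0.29 for Pecam1, -0.23 to 0.42 for Flt1, -0.07 to 0.36 for Slc2a1, -0.03 to 0.58 for Hba-a1 and -0.01 to 0.24 for Itpr1. The log2 ratio of the summed oligodendrocyte level (nm3888-/- over wild type, 0.01) was -0.05 in the first series alone, and that of granule cells (0.43) was 0.70 in the second. Depth limits the microglia genes, with counts as low as 1.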
